A study of Mus musculus with 12 samples.

Results

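Tumour T cells from irradiated mice that also received FTY720 were compared with T cells from mice that were irradiated only, all taken 72 hours after radiation. Cells were given to samples by hashtag, which required 20 or more UMIs (unique molecular identifiers, each counting 1 captured molecule) of the leading tag and at least 3 times the next tag, and a cell was kept with at least 500 genes and at most 10% of its UMIs from mitochondrial genes. This gave 122 cells of RT+FTY720 D3 (radiation and FTY720) and 159 cells of RT D3 (radiation alone), 281 of the 2740 cells kept in the series. The mice were of the genotype Kaedehet, carrying a protein that violet light turns from green to red, and bore MC38 tumours, a mouse colorectal carcinoma line. In both groups light was directed at the tumour-draining lymph node on day 14 of tumour growth and the tumour then received a dose of 12 Gy. The RT+FTY720 D3 mice were given 10 µg FTY720 into the peritoneum on day 15. FTY720 D3, drug without radiation, shared the same 10x wells and gives 142 cells that are shown beside the others. Each group has 2 replicates (r1 and r2), and the labels describe pools of tumours from 4 mice. The r1 samples of all 3 groups went into one 10x well and the r2 samples into another. Whether r1 and r2 came from separate mice was not tested, and TCR sequences shared between them are given below. Cells were enriched with beads for CD4 and CD8 T cells and sorted as CD90.2-positive by Kaede colour, so shares of cell types are shares of what the sort let through.

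T cells leave lymph nodes by following the lipid sphingosine-1-phosphate, which is abundant in blood and lymph and is sensed by the receptor S1PR1. FTY720 is phosphorylated in the body, binds S1PR1 and drives it into the cell, so that lymphocytes are held in lymph nodes and fewer circulate. KLF2 is the transcription factor that keeps S1PR1 switched on in resting T cells, CCR7 guides such cells into lymph nodes, and CD69 on activated cells opposes S1PR1.

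The cells carried the markers of the sorted population. Cd3e, a subunit of the T cell receptor complex, had a UMI in 96.2% to 98.1% of the cells of each of the 4 pools. Over the 4 pools the 14 myeloid genes summed to between 106 and 152 CPM (the count scaled to the library's total), with S100a8 and S100a9 at 0 in each. The 9 NK and innate lymphoid genes summed to more, 359 and 304 CPM under RT and 310 and 302 under RT+FTY720, although Ncr1 of NK cells was at 0. Ms4a1 of B cells was also at 0. The other B cell genes were not even across the groups: the 7 B cell genes summed to 73.5 and 86.9 CPM under RT and to 28.3 and 45.6 under RT+FTY720. The 6 epithelial genes summed to 9.65 and 13.4 against 16.3 and 33.4, with Krt8, Krt18, Krt19 and Cldn4 at 0 in each pool. The part of the B cell or epithelial genes in the results was not tested. The pools held 53 and 106 RT cells and 51 and 71 RT+FTY720 cells, with 1346632, 2014340, 918582 and 1315522 UMIs in all and medians of 21162, 15261, 15918 and 17314 UMIs per cell. No cell barcode was shared between wells.

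The hashtag sequences are shown because the names attached to them conflict in replicate 2. Capitals mark the bases that were counted, and each tag is named by its label number and condition.
C0301, RT D3: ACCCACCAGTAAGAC
C0302, RT D3: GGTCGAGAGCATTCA
C0305, RT+FTY720 D3: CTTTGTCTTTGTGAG
C0306, RT+FTY720 D3: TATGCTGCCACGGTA
In the deposited matrices C0301 and C0305 are named red in r1 and green in r2, and C0302 and C0306 the reverse, whereas the sample labels call C0301 and C0305 red in both replicates. Colours below follow the matrices, so red and green each join different tag sequences in r1 and r2. Which names are right was not tested. TCR sequences crossed the wells along the tag sequence: over all 6 conditions, 64 pairs of TCR alpha and beta sequences were shared between same-condition samples with the same tag sequence in different wells (10 of 12 such sample pairs), against 4 between samples with the same colour name (3 of 12 pairs). In RT D3 these counts were 3 and 0, and in RT+FTY720 D3 they were 2 and 1. Between conditions within a well, 0 of 48 sample pairs shared a TCR pair, and between conditions in different wells 2 of 192 did. The part of this sharing in the results was not tested, and the p-values below measure only the spread between these pools, which may be technical. UMIs were also summed per tag sequence in place of the pools, and the calls made both ways are given.

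Genes of resting, lymph-node-homing T cells were lower with FTY720 added, over all tumour T cells of a pool. Ccr7, Klf2 and Dapl1 fell, and Sema6d and Klrb1b rose. In edgeR's quasi-likelihood test with Benjamini-Hochberg adjustment these were the 2 genes called higher (0.0178% of 11247 tested) and the 3 called lower (0.0267%), each at an adjusted p of 0.0287. Pooled sums cannot tell fewer cells of a type from less RNA per cell.

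Ccr7, the receptor that brings T cells into lymph nodes, stood at 228.8 and 179.6 CPM (TMM-normalised, as are all pool levels below) in the RT pools and at 62.95 and 70.52 in the RT+FTY720 pools. Both RT pools lay above both RT+FTY720 pools, and the log2 fold change was -1.57 ± 0.19 (SE, 2 pools a group). Klf2 was at 320.5 and 462.4 under RT and at 143.6 and 157.3 under RT+FTY720. The groups did not overlap, with a log2 fold change of -1.37 ± 0.17. Dapl1, a gene typical of naive and early memory CD8 T cells, had 169 UMIs in the RT pools and 1 UMI in the RT+FTY720 pools, where r1 was at 0 and r2 at 0.775 CPM against 66.26 and 41.99. Over the library totals the RT level was 112 times as high (95% counting interval 19.9 to 4463). This interval treats each UMI as independent and does not cover the spread between cells or pools. Among CD8-like cells, 2 of 26 and 6 of 47 had a Dapl1 UMI under RT, and 0 of 31 and 1 of 47 under RT+FTY720. Single cells gave 53.3% and 44.4% of the UMIs of that class under RT.

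The FTY720 D3 pools, without radiation, stood at 94.86 and 59.77 for Ccr7 and at 176 and 221.7 for Klf2. Both genes were below both RT pools there, and Ccr7 overlapped RT+FTY720. Dapl1 was at 94.86 and 26.15 under FTY720 D3, a range that spanned the RT values.

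Sema6d, a transmembrane semaphorin, was at 6.93 and 9.61 under RT and at 66.27 and 95.32 under RT+FTY720, a log2 fold change of 3.27 ± 0.40. Klrb1b, an inhibitory lectin-like receptor of the NK gene complex, had 3 UMIs under RT and 80 under RT+FTY720, a ratio of 40.1 over the library totals (95% counting interval 13.2 to 199). Its pool levels were 0 and 1.52 against 16.57 and 50.37. Few cells carried this signal: among CD8-like cells, 5 of 31 in r1 and 3 of 47 in r2 had a Klrb1b UMI under RT+FTY720, and a single cell gave 73.2% of the r2 UMIs.

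**Figure D1:**
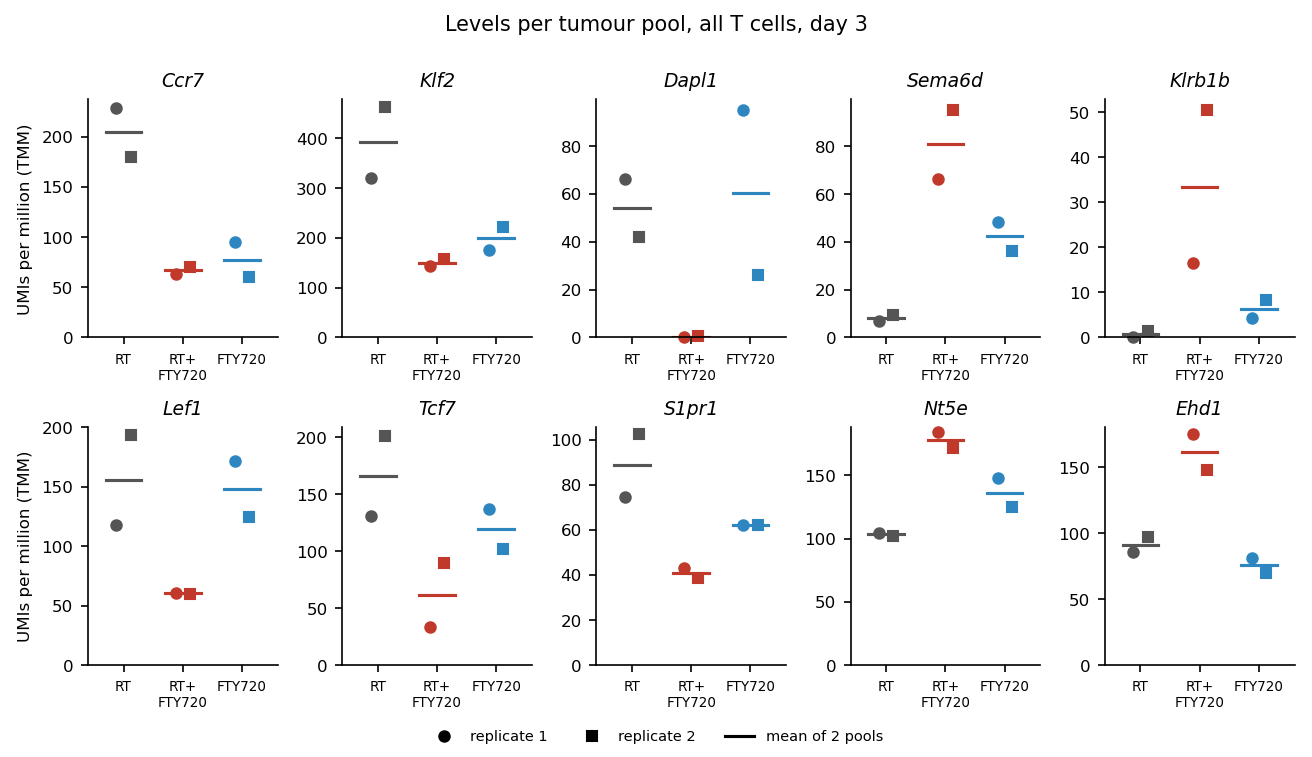
Levels in CPM (TMM-normalised, linear axes from 0) of 10 genes in the pooled T cells, with circles for r1, squares for r2 and lines for the means of 2 pools. Ccr7, Klf2, Dapl1, Lef1, Tcf7 and S1pr1 are lower in both RT+FTY720 pools than in both RT pools, and Sema6d, Klrb1b, Nt5e and Ehd1 are higher; only Ccr7, Klf2, Dapl1, Sema6d and Klrb1b passed the test.

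The wider group of naive and lymph node homing genes lay lower as well. Of its 14 members, all tested, 3 passed (Ccr7, Klf2 and Dapl1), 12 had an unadjusted p under 0.05 and all of those were lower, against 5.65% of all genes tested. The median log2 fold change over the list was -1.37, beside -0.01 over all genes. In 11 of 14 both RT+FTY720 pools were below both RT pools, against 18.2% of genes tested.

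S1pr1, the receptor that FTY720 targets, was at 74.7 and 102.7 under RT and at 43.1 and 38.8 under RT+FTY720, a log2 difference of -1.14 ± 0.27 that did not pass (adjusted p = 0.205). The transcription factors of resting and stem-like T cells showed like values: Lef1 was at 117.9 and 193.8 against 60.74 and 59.67, and Tcf7 at 131.0 and 200.8 against 33.13 and 89.12 (adjusted p = 0.18 and 0.182). None of these groups overlapped, although none of the 3 genes passed.

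Among the 21 genes of S1P receptors and egress control, 14 were tested and 1, Klf2, passed. S1pr4, a lymphocyte S1P receptor, was at 47.0 and 51.6 against 54.12 and 34.87, values that overlapped. S1pr5 was too low to test, and had 0 UMIs in the CD8-like cells of the 4 pools. Cd69 was at 602.5 and 624.8 against 518 and 537.8, and Rgs1, a damper of chemoattractant signals, at 787.4 and 547.4 against 737.8 and 644.7. Neither of the last pair passed, and Rgs1 overlapped.

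Genes of activation and exhaustion lay higher without passing. In the exhaustion list 6 of 15 had an unadjusted p under 0.05, all higher, against 5.07% of genes tested, and in the early activation list 9 of 15. The list medians were 0.48 and 0.63 log2 units. Pdcd1, which encodes the inhibitory receptor PD-1, was at 281.2 and 248.4 under RT and at 543.4 and 397.5 under RT+FTY720 (adjusted p = 0.301). Cxcr6, a chemokine receptor of tumour-resident T cells, was at 361.4 and 427.5 against 879.1 and 626.1 (adjusted p = 0.267). Nt5e, the adenosine-producing ectoenzyme CD73, was at 104.8 and 102.2 against 184.4 and 172 (adjusted p = 0.0582), and Ehd1, an endosome-recycling protein, at 85.53 and 97.13 against 175.6 and 148 (adjusted p = 0.122). In all of these both RT+FTY720 pools were the higher ones, as in 17.7% of genes tested.

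Further genes of the fixed panel did not pass. Gzmb, the cytotoxic protease granzyme B, was at 3023 and 3042 against 2605 and 2458, and the p53 target Mdm2 at 79.4 and 74.9 against 68.5 and 66.6. Foxp3, the regulatory T cell factor, was at 154.9 and 149.7 against 78.42 and 102.3 (adjusted p = 0.497). Isg15, an interferon-stimulated gene, was at 1149 and 1349 against 1038 and 1236, and Cdkn1a, the p53-induced cell cycle inhibitor, at 108.6 and 78.41 against 155.7 and 104.6. A missed threshold does not show that these levels were alike.

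The calls depended on how the samples were divided. Summed per tag sequence instead of per pool, edgeR called 0 genes (1089 with an unadjusted p under 0.05), with log2 fold changes of -1.65 for Ccr7, -1.42 for Klf2 and 3.24 for Sema6d. Without RT+FTY720 r1 or without RT+FTY720 r2, 0 genes were called, without RT r1 2, and without RT r2 19. Fitted without the well as replicate block, 6 genes were called and Klf2, Dapl1 and Klrb1b no longer passed. Of the 5 genes, Dapl1 passed in 2 of the 4 fits that left out a pool and the others in 0, with directions kept throughout.

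Cells with naive markers were nearly absent from the RT+FTY720 pools. Clusters 6 and 7, the clusters marked by 5 naive markers that include Ccr7, Lef1 and Dapl1, held 5 of 53 RT r1 cells (9.43%, 95% Clopper-Pearson interval 3.13 to 20.7) and 14 of 106 RT r2 cells (13.2%, 7.41 to 21.2). They held 0 of 51 RT+FTY720 r1 cells (upper bound of the interval 6.98%) and 1 of 71 r2 cells (1.41%, 0.0357 to 7.60). The groups did not overlap, and the difference of the means was -10.6 percentage points. An exact two-sided permutation test gave p = 0.333, the smallest that 2 pools against 2 allow. FTY720 D3, given without radiation, held 9 of 39 and 15 of 103 cells (23.1% and 14.6%) in these clusters.

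Those markers also differed between the groups, so the size of these clusters is no evidence apart from the genes. Other ways of counting the same cells are given as a description. With the naive and S1P genes and the called genes, 34 in all, left out of the clustering, the clusters made up mostly of cells of clusters 6 and 7 held 5 and 18 RT cells, 1 and 2 RT+FTY720 cells, and 10 and 18 FTY720 cells. With every cell thinned to 5000 UMIs, at least 3 of the same 5 markers were detected in 4 of 52 and 19 of 104 RT cells, in 0 of 43 and 1 of 67 RT+FTY720 cells and in 4 of 38 and 7 of 101 FTY720 cells. Unthinned, the same count was 6 and 23 RT cells against 0 and 3 RT+FTY720 cells. Shallower cells left out of the thinned count numbered 1 and 2 under RT and 8 and 4 under RT+FTY720.

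The cells of clusters 6 and 7 were not all of one kind. Cluster 6 was led by Klra7, Klra1, Eomes and Fcer1g, genes of NK cells and of virtual-memory-like CD8 cells, had a Cd8a UMI in 88.8% of its cells and was left without a name. It held 3.77% of the cells of each RT pool and 0 in both RT+FTY720 pools, and its mean share was 16.1% under FTY720 D3. Cluster 7, led by Igfbp4, Lef1, Ccr7 and Dapl1, held 7.55% of RT cells and 0.704% of RT+FTY720 cells (means of 2 pools). Both clusters had fewer RT+FTY720 cells in green and in red samples. In green cells clusters 6 and 7 held 9.93% under RT and 0 under RT+FTY720. In red cells they held 2 of 24 and 10 of 64 under RT against 0 of 23 (Clopper-Pearson upper bound 14.8%) and 1 of 40. When only CD8-like, Treg-like and CD4 conventional-like cells were summed, without these clusters, 0 genes were called, with log2 fold changes of -1.28 for Ccr7, -1.03 for Klf2 and 3.10 for Sema6d.

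**Figure D2:**
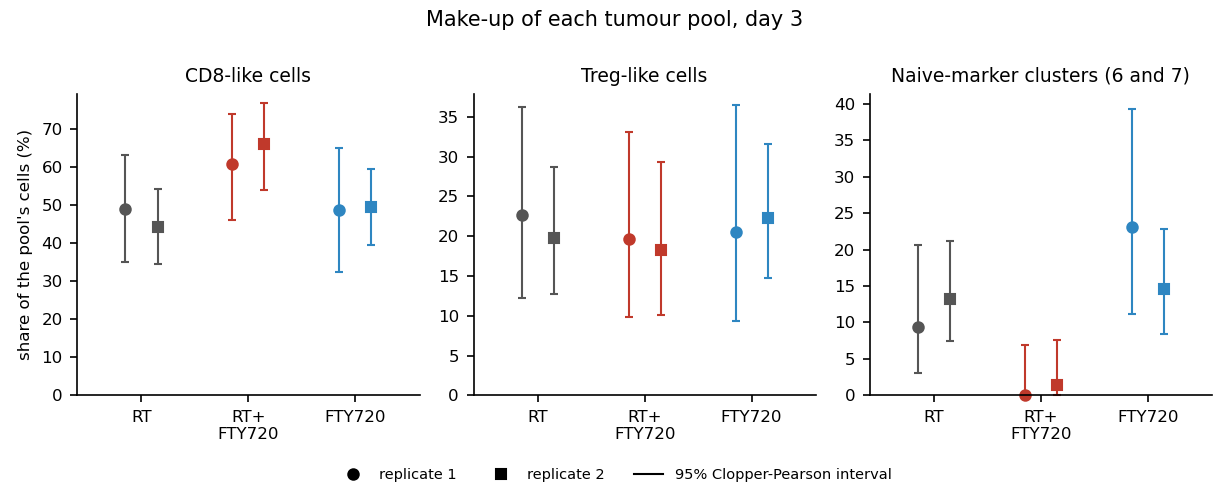
Share of each pool's cells (%, linear axes from 0) that were CD8-like, Treg-like or in the naive-marker clusters 6 and 7, with circles for r1, squares for r2 and bars for 95% Clopper-Pearson intervals, which cover counting error only. The RT+FTY720 pools hold 60.8% and 66.2% CD8-like cells against 49.1% and 44.3% under RT, and 0 and 1.41% in clusters 6 and 7 against 9.43% and 13.2%.

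CD8-like cells made up more of the RT+FTY720 pools. Their share was 49.1% and 44.3% under RT (26 of 53 and 47 of 106 cells) and 60.8% and 66.2% under RT+FTY720 (31 of 51 and 47 of 71), and FTY720 D3 stood at 48.7% and 49.5%. The groups did not overlap, and the means differed by 16.8 percentage points (exact permutation p = 0.333, the smallest possible). Among green cells the means were 45.7% and 67.6% without overlap, and among red cells 49.5% and 59.5% with overlap. Classing cells by lineage genes alone put the difference at 10.1 points. A Cd8a UMI was found in 54.7% and 51.9% of RT cells and in 56.9% and 67.6% of RT+FTY720 cells. The CD8-like class leaves out naive CD8-like cells and the unnamed cluster 6, which had a Cd8a UMI in 88.8% of its cells. Cluster 6 held 2 of 53 and 4 of 106 RT cells and 0 of 51 and 0 of 71 RT+FTY720 cells. Under FTY720 D3 it held 8 of 39 and 12 of 103. The part of this naming in the difference was not tested. Treg-like cells, which carry Foxp3, made up 22.6% and 19.8% under RT and 19.6% and 18.3% under RT+FTY720, and CD4 conventional-like cells 18.9% and 21.7% against 19.6% and 14.1%. The red share of the sorted cells, 45.3% and 60.4% under RT and 45.1% and 56.3% under RT+FTY720, was set by the sort and overlapped.

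Within CD8-like cells the chemokine genes Ccl3 and Ccl4 and the cytokine gene Csf2 rose, and 5 of 13 mitochondrially encoded protein genes fell. Of 10164 genes tested, 6 passed higher (0.059%): Ccl3, Ccl4, Csf2, Sema6d, Klrb1b and Gm48099. The 9 that passed lower (0.0885%) were Klf2, mt-Nd1, mt-Cytb, mt-Nd4l, mt-Nd4, mt-Nd2, Trbv5, Gm20400 and Rom1.

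Ccl3 and Ccl4 encode chemokines that activated CD8 T cells secrete to attract other immune cells. Ccl3 was at 328.8 and 578.5 CPM under RT and at 2010 and 3323 under RT+FTY720, a log2 fold change of 2.57 ± 0.26 (edgeR adjusted p = 0.00709). Ccl4 was at 1572 and 1559 against 5110 and 9553, a log2 fold change of 2.16 ± 0.26 (edgeR adjusted p = 0.0102). For both genes the RT+FTY720 pools lay far above the RT pools, and the FTY720 D3 pools lay nearer to RT. Under FTY720 D3, Ccl3 was at 577 and 1014, above the RT pool of the same well in both wells. Ccl4 was at 1278 and 1860 there, a range that spanned the RT values.

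Single cells gave a large share of this RNA. The single cell richest in Ccl3 held 34.1% and 40.9% of the Ccl3 UMIs in the RT pools and 41.4% and 53.3% in the RT+FTY720 pools. Without that cell in each pool, Ccl3 stood at 225 and 343 CPM over the library total against 1190 and 1600, and Ccl4, without its own richest cell, at 1207 and 1165 against 3038 and 5316. Cells with a Ccl3 UMI numbered 11 of 26 and 18 of 47 under RT and 10 of 31 and 13 of 47 under RT+FTY720. By hashed sample, over all T cells, the rise was absent from 1: green RT+FTY720 r2 had 7.29 CPM of Ccl3 over the library total, against 1075 and 1487 in green and red r1 and 4109 in red r2. The 4 RT samples lay between 92.9 and 316.

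Csf2, the cytokine GM-CSF, was at 23.0 and 7.12 under RT and at 141.5 and 27.4 under RT+FTY720 (log2 fold change 2.44 ± 0.35, edgeR adjusted p = 0.0208). Without the richest cell of each pool the groups overlapped, at 15.9 and 5.14 against 51.0 and 13.8 CPM over the library total. FTY720 D3, at 418.7 and 51.36, was above the RT+FTY720 pool of the same well in both wells, but a single cell gave 90.9% of its r2 UMIs. Without the richest cell of each pool FTY720 D3 was at 188.6 and 4.99 CPM over the library total. It was then above RT+FTY720 in r1 and below it in r2. Gm48099, a gene model without an assigned name, was at 2102 and 1436 against 3436 and 2836 (log2 fold change 0.84 ± 0.12), and with cells classed by lineage genes alone its log2 difference was -0.39. The richest cell held 47.7% and 36.8% of its UMIs under RT+FTY720, and without the richest cell of each pool the levels were 1751 and 1207 against 1840 and 1798 CPM over the library total. Sema6d in CD8-like cells was at 13.83 and 13.22 against 80.14 and 126.4, with FTY720 D3 at 104.7 and 68.17, so both groups given the drug stood above RT. Sema6d is a leading gene of cluster 0 of the CD8-like class, which held 9.43% and 5.66% of all cells under RT, 13.7% and 12.7% under RT+FTY720 and 20.5% and 12.6% under FTY720 D3. The part of this make-up in the Sema6d result was not tested. Cluster 4, led by Xcl1, Ccl3, Ifng, Ccl4 and Il2, held 0 of 53 and 0 of 106 RT cells (Clopper-Pearson upper bounds 6.72% and 3.42%). It held 2 of 51 and 5 of 71 RT+FTY720 cells, and likewise 2 of 39 and 6 of 103 FTY720 D3 cells. Ccl3 and Ccl4 are among its defining genes, so its size is no separate evidence.

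Of the 21 cytotoxic effector genes, all tested in CD8-like cells, 2 passed higher (Ccl3 and Ccl4) and 0 lower, and 5 had an unadjusted p under 0.05 in the higher direction, against 3.97% of genes tested, with a list median of 0.27 log2 units beside 0.00 over all genes. Gzmb was at 4202 and 3232 under RT and at 2217 and 2430 under RT+FTY720, lower without overlap and short of the threshold (adjusted p = 0.48). Ifng, the cytokine interferon gamma, was at 1315 and 717.8 against 1332 and 2256 (adjusted p = 0.637). Pdcd1 stood at 454.7 and 383.3 against 692.3 and 499.4, and Cxcr6 at 651.4 and 629.4 against 1032 and 788.1. The chemokine receptor gene Ccr8 was at 99.9 and 102.7 against 146.6 and 171.7. For the last 3 both RT+FTY720 pools were the higher, as in 17.2% of genes tested, and a Gzmb-like order, both lower, was found in 16.6%. Interferon-stimulated genes showed 5 of 30 with an unadjusted p under 0.05, all lower, against 3.96% of genes tested, and 0 passed.

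Klf2 fell within CD8-like cells as it did in the whole pools. It was at 130.6 and 342.6 under RT and at 44.3 and 115.9 under RT+FTY720, a log2 fold change of -1.55 ± 0.21 (edgeR adjusted p = 0.0187). In each well the RT+FTY720 pool was the lower, and all RT values were above all RT+FTY720 values. Without the richest cell of each pool the values overlapped, at 89.0 and 292.9 against 26.9 and 95.1 CPM over the library total, and without the replicate block Klf2 no longer passed. Ccr7 in CD8-like cells was at 178.2 and 58.97 against 73.32 and 71.65, and S1pr1 at 21.5 and 48.8 against 42.6 and 24.2, values that overlapped. Of the 13 naive and homing genes tested, 1 passed. Dapl1 had 15 and 45 UMIs in CD8-like cells under RT and 0 and 1 under RT+FTY720.

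Mitochondrially encoded subunits of the respiratory chain made up 5 of the 9 genes that fell in CD8-like cells. Of 13 mitochondrial protein-coding genes, 5 passed and all 5 were lower. The gene mt-Nd1, a subunit of complex I, was at 1106 and 1038 under RT and at 580 and 592 under RT+FTY720 (log2 fold change -0.87 ± 0.11, edgeR adjusted p = 0.0102). The gene mt-Cytb, a subunit of complex III, was at 1228 and 1249 against 667 and 744 (log2 fold change -0.81 ± 0.11, edgeR adjusted p = 0.013). The 3 other genes that passed also encode complex I subunits: mt-Nd4l was at 916 and 917 against 573 and 532, mt-Nd4 at 564 and 561 against 351 and 327, and mt-Nd2 at 601 and 545 against 373 and 291.

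The other 8 mitochondrial genes did not pass, with log2 estimates from -0.19 for mt-Co1 to -0.77 for mt-Nd3. Of the complex IV subunits mt-Co1 stood at 3936 and 4222 against 3879 and 3297 and mt-Co3 at 2114 and 2133 against 1664 and 1390, and of the ATP synthase mt-Atp6 stood at 2036 and 2110 against 1726 and 1468. None of these 3 passed. FTY720 D3 was not low: mt-Nd1 stood at 1310 and 1184 and mt-Cytb at 1617 and 1533 there. The median share of mitochondrial UMIs per cell, over all T cells, was 1.15% and 1.15% under RT, 1.07% and 0.912% under RT+FTY720, and 1.74% and 1.61% under FTY720 D3. Whether RNA quality had a part in the mitochondrial difference was not tested.

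**Figure D3:**
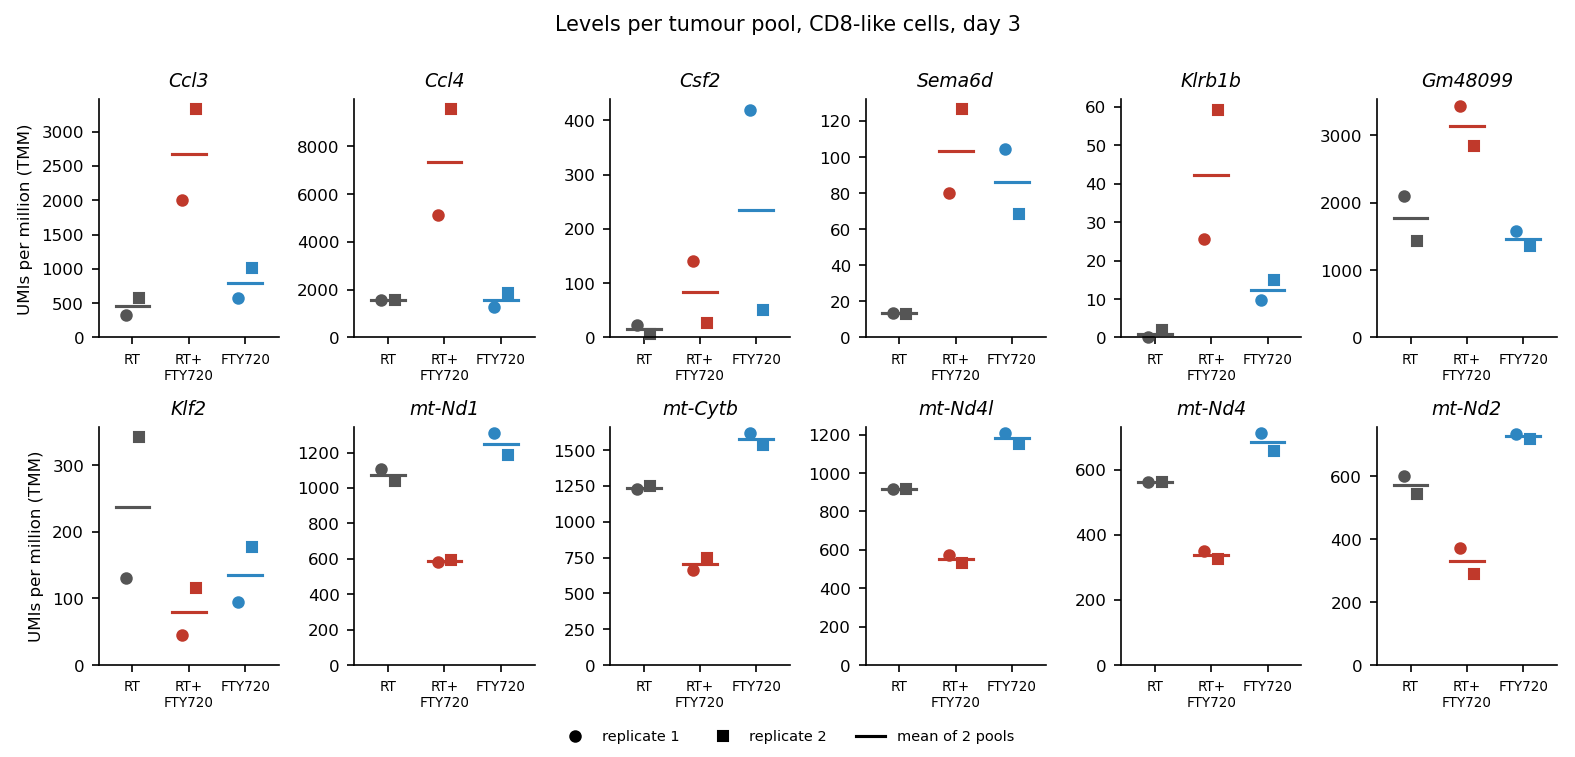
Levels in CPM (TMM-normalised, linear axes from 0) in CD8-like cells of 12 of the 15 genes that passed the test, with circles for r1, squares for r2 and lines for the means of 2 pools. Ccl3, Ccl4, Csf2, Sema6d, Klrb1b and Gm48099 are higher and Klf2 and 5 mitochondrial genes lower in both RT+FTY720 pools than in both RT pools; the FTY720 D3 pools lie near or above RT for the mitochondrial genes.

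The other genes that passed lower were of a different kind. Trbv5, a V segment of the TCR beta chain, was at 270.4 and 130.1 under RT and at 20.46 and 22.13 under RT+FTY720. The assembled TCRs gave TRBV5 in 5 of 21 and 5 of 39 CD8-like RT cells and in 1 of 26 and 3 of 45 RT+FTY720 cells. Rom1, a tetraspanin of photoreceptors, had 25 UMIs under RT and 0 under RT+FTY720, at least 7.86-fold lower (floor of 3 UMIs over the group). Gm20400, a gene model without an assigned name, was at 413.3 and 295.9 against 136.4 and 165.4.

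These calls varied with the libraries. Summed per tag sequence, edgeR called 0 genes in CD8-like cells, with log2 fold changes of 2.50 for Ccl3, 2.26 for Ccl4 and -0.88 for mt-Nd1. Without RT r1 0 genes were called, without RT+FTY720 r1 6 and without RT+FTY720 r2 9. Fitted without the replicate block 9 genes were called. Ccl3 passed in 3 of the 4 fits that left out a pool, Ccl4 in 1 and mt-Nd1 in 2, and each kept its direction in all of them.

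TCR beta sequences were repeated more often in the RT+FTY720 pools. Counting a clone as cells of identical TCR beta V gene, J gene and CDR3 bases, cells in clones of 2 or more made up 2 of 44 and 9 of 89 cells under RT (4.55% and 10.1%). Under RT+FTY720 they were 12 of 41 and 23 of 64 (29.3% and 35.9%), with 95% Clopper-Pearson intervals of 16.1 to 45.5 and 24.3 to 48.9. The groups did not overlap and their means differed by 25.3 percentage points (exact permutation p = 0.333, the smallest possible). FTY720 D3 stood between at 24.2% and 15.8%. The chance that 2 cells of a pool share a beta sequence, which does not grow with the number of cells, was 0.106% and 0.153% under RT, 2.20% and 1.29% under RT+FTY720 and 0.758% and 0.202% under FTY720 D3. The means differed by 1.61 percentage points, and by 0.948 without the RT+FTY720 r1 red cells, which include a clone shared with FTY720 D3.

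Most cells with repeated sequences were CD8-like. Among CD8-like cells, clone members were 2 of 21 and 6 of 39 under RT and 10 of 26 and 21 of 45 under RT+FTY720 (9.52% and 15.4% against 38.5% and 46.7%). FTY720 D3 held 6 of 15 and 15 of 47, so its CD8-like cells, at 40.0% and 31.9%, lay above RT too. CD4 conventional-like cells held 0 of 10 and 3 of 20 clone members under RT and 2 of 9 and 2 of 10 under RT+FTY720. Treg-like cells held 0 clone members in all 6 pools, with 6 to 20 cells carrying a beta chain each and upper 95% bounds of 16.8% to 45.9%. With alpha and beta chains required together the pool shares were 4.76% and 6.02% under RT and 30.8% and 33.9% under RT+FTY720. The difference was seen in green cells, with means of 7.35% and 31.5%, and in red cells, with means of 8.90% and 30.1%, neither with overlap. In the red cells of RT+FTY720 r1, however, all 6 clone members, of 19 cells, belonged to the single TRBV31 clone described below. That clone was also seen in FTY720 D3 r2.

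**Figure D4:**
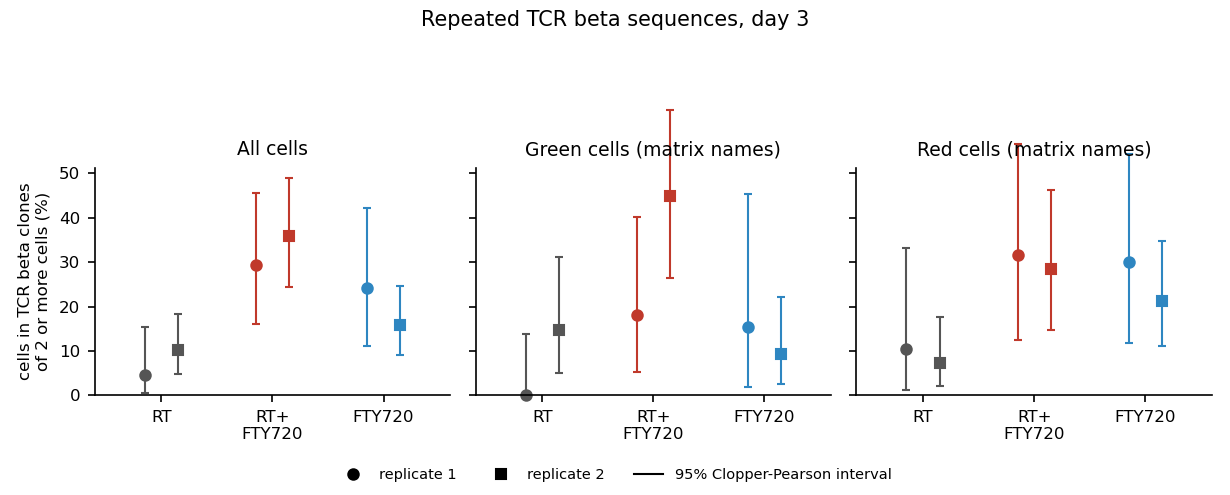
Share of cells with a TCR beta chain (%, linear axis from 0) that belong to clones of 2 or more cells, for all, green and red cells of each pool, with circles for r1, squares for r2 and bars for 95% Clopper-Pearson intervals, which cover counting error only. The RT+FTY720 pools stand at 29.3% and 35.9% against 4.55% and 10.1% under RT and 24.2% and 15.8% under FTY720 D3.

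The CDR3 bases of the largest clones are shown because they identify the cells behind these counts. Each beta CDR3 is written 5′ to 3′ as assembled in the deposited contigs. Capitals mark the junction, the bases outside the start shared by most distinct sequences of the same V gene and the end shared by most of the same J gene.
TRBV13-1 and TRBJ1-6: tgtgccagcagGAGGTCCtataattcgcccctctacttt
TRBV31 and TRBJ2-5: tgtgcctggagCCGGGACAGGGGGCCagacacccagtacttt
TRBV19 and TRBJ2-7: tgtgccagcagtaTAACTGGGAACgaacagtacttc
TRBV13-3 and TRBJ2-4: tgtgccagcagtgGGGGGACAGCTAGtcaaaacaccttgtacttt
TRBV29 and TRBJ2-3: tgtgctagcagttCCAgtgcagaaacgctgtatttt
TRBV12-2 with TRBV13-2 and TRBJ1-3: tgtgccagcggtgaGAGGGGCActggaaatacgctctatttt
The first 5 were seen in RT+FTY720 cells and the last, in 3 green CD4 conventional-like cells, under RT r2.

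The TRBV13-1 clone was the largest of the 4 pools. Its 7 cells, all CD8-like and all with the same TRAV4N-4 and TRAJ17 alpha chain, comprised 1 green and 1 red cell of RT+FTY720 r1 and 5 red cells of r2. The alpha CDR3 of this clone is shown as the other chain of the receptor.
TRAV4N-4 and TRAJ17: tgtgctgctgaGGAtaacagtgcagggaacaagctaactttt
In cluster 12, marked by Ifi204, Ifi211 and Lag3, lay 5 of the 7 cells. The TRBV31 clone had 6 red cells in RT+FTY720 r1 and 3 red cells in FTY720 D3 r2, in another condition and well, with the same TRAV3N-3 and TRAJ7 alpha chain in all 9. Because of this sharing, each count was also taken without the RT+FTY720 r1 red cells: the difference in clone members was then 19.7 percentage points and 3 genes were called in all T cells.

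The TRBV19 clone (4 cells) and the TRBV29 clone (3 cells) were confined, in these pools, to green cells of RT+FTY720 r2, and all their cells fell in the interferon-gene cluster 8. The TRBV13-3 and TRBJ2-4 clone was seen in 3 red cells of RT+FTY720 r2. Under RT, clones seen in both wells were of 2 cells each: TRBV26 with TRBJ1-6, TRBV2 with TRBJ2-7 and TRBV5 with TRBJ1-6, all CD8-like. Each of these 3 crossed from one colour name in r1 to the other in r2, along the same tag sequence.

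**Figure D5:**
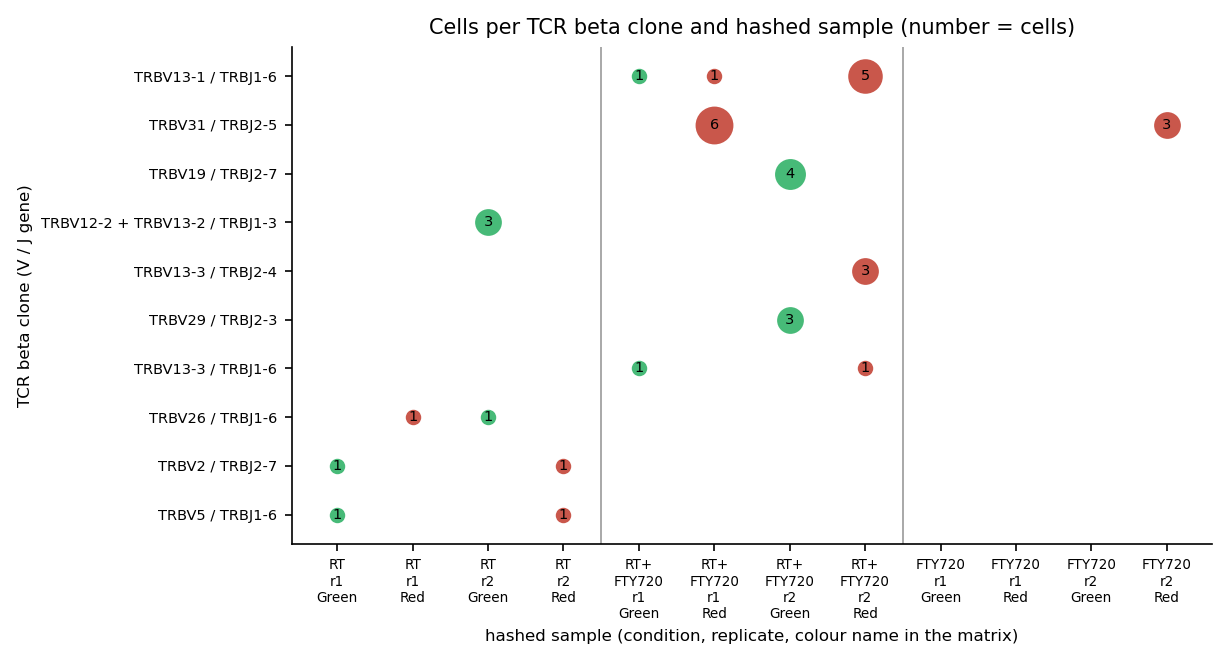
Cells per TCR beta clone (rows, named by V and J gene) in each hashed sample (columns; red and green as named in the matrices), with dot area and number giving the cells. The clones of 4 or more cells lie under RT+FTY720, the TRBV31 clone also under FTY720 D3, and the RT clones hold at most 3 cells.

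In Treg-like cells 0 of 8296 genes passed in either direction (0.0% called in edgeR, with 3.07% higher and 4.11% lower at an unadjusted p under 0.05, 596 genes in all, and 10 called by DESeq2). Zfp36 and Junb, both immediate early genes, were lower in both RT+FTY720 pools. Zfp36, which encodes an RNA-destabilising protein, was at 1117 and 1073 under RT and at 261.2 and 415.2 under RT+FTY720 (adjusted p = 0.19). Junb, an AP-1 subunit, was at 1880 and 1240 against 766.3 and 508.8 (adjusted p = 0.301). Ifi211, an interferon-inducible PYHIN gene, was at 89.8 and 134.4 against 261.2 and 415.2 (adjusted p = 0.301). Klf2 was at 668.4 and 328.6 against 58.05 and 187.1, and Ccr8 at 259.4 and 288.8 against 121.9 and 175.4, without overlap, as in 17.4% of genes tested in the lower direction. Foxp3 was at 982.6 and 697 against 412.2 and 772, which overlapped. Leaving out RT+FTY720 r2 gave 46 calls and leaving out r1 gave 1, with 10 to 21 Treg-like cells a pool behind all of these values.

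CD4 conventional-like cells likewise gave 0 of 8291 genes (0.0% called; 813 with an unadjusted p under 0.05 in edgeR, and 23 called by DESeq2). FTY720 D3 r1 had 3 such cells and was left out of that fit. Ccr7 was at 665.5 and 428 under RT and at 7.39 and 68.1 under RT+FTY720 (adjusted p = 0.159). Tox, a transcription factor of exhaustion, was at 335.7 and 156 against 59.14 and 49.5, and Il18r1, a subunit of the interleukin-18 receptor, at 1060 and 558.5 against 377 and 247.5 (both adjusted p = 0.159). All 3 were lower in both RT+FTY720 pools. Klf2 was at 347.5 and 380.8 against 694.9 and 365.1, values that overlapped.

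Gene groups in CD4 conventional-like cells lay to either side without a call. Of 30 interferon-stimulated genes 13 had an unadjusted p under 0.05, all lower, against 5.99% of genes tested, and the list median was -0.62 log2 units beside -0.04 over all genes. Of 13 hypoxia and glycolysis genes tested, 8 had an unadjusted p under 0.05, all higher, against 3.81% of genes, with a median of 0.68. Tpi1, a glycolytic isomerase, was at 235.6 and 199.5 against 547.1 and 550.7 (adjusted p = 0.225), and S1pr1 at 235.6 and 199.5 against 96.11 and 117.6 (adjusted p = 0.414). These pools held between 10 and 23 cells of the class.

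Split by colour, 0 of 9136 genes passed in green and 0 of 10375 in red cells (0.0% called in each; 779 and 1028 with an unadjusted p under 0.05 in edgeR, and 4 and 36 called by DESeq2). With the label colours in place of the matrix colours 3 genes were called in red cells. At an unadjusted p under 0.05, 4.13% of genes were higher in green and 4.4% in red cells. Red cells are those that had been in the tumour-draining lymph node at the time of the light, and green cells those that had not, or whose label had been diluted. In r2 this reading rests on the matrix names, and under the label names red and green are exchanged. Both RT+FTY720 pools were below both RT pools for 16.6% of genes in green and 18.4% in red cells, and above them for 16.9% and 16.6%. S1pr1 was at 139.4 and 102.8 under RT against 30.17 and 31.01 under RT+FTY720 in green cells (adjusted p = 0.458). Ccl3 was at 275.7 and 316.6 against 1469 and 4281 in red cells (adjusted p = 0.276).

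The test of whether the colours differed in their response called 0 of 10422 genes (0.0% called; 769 with an unadjusted p under 0.05 in edgeR, 3.29% higher and 4.09% lower, and 3 called by DESeq2). Rgs1 and Il7r, the latter encoding a receptor chain for interleukin-7, differed in sign between the colours as named in the matrices. Rgs1 in green cells was at 994.3 and 686.9 under RT and at 622 and 461.4 under RT+FTY720, and in red cells at 675.9 and 477.6 against 851.9 and 786.4. Il7r in green cells was at 516.6 and 666.7 against 336.5 and 273.6, and in red cells at 368.8 and 449.2 against 558 and 531.1. The log2 differences between colours were 1.14 ± 0.28 and 1.36 ± 0.36, with adjusted p = 0.617 and 0.649. With the label colours the red and green values of r2 change places, and then neither gene keeps a sign within a colour. The naive and homing genes lay lower in both colours, with medians of -1.10 and -1.55 log2 units and 8 and 10 of 14 at an unadjusted p under 0.05, all lower, against 4.4% and 5.5% of genes tested.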

How the data were processed

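Single-cell RNA, hashtag and TCR libraries (10x GEM-X 5', per the labels' protocols) of 4 wells were used. As deposited, the matrices give each cell's unnormalised UMI counts for genes and for hashtags. Cell Ranger 8.0.1 and mm39 are named in the submitters' processing notes. The TCR contig tables deposited with them list counts of reads and UMIs per TCR contig. UMIs were summed per pool (condition and replicate) and tested with edgeR 4.0.16 (quasi-likelihood, TMM, filterByExpr) over all 12 pools with the well as replicate block, at an adjusted p of 0.05 (Benjamini-Hochberg), with 4 residual degrees of freedom (3 in CD4 conventional-like cells, 6 between colours). Each replicate number marks a shared well in the labels. Deviations of same-numbered pools correlated at 0.0190, -0.0115 and 0.0150 over 11247 genes. Cells were clustered with scanpy 1.11.5 and Leiden at resolution 1, and classes were named from at least 3 markers, with a pool entering a class fit at 5 or more cells. No doublet caller was run; 7 of the 281 cells had 2 or more TCR beta chains. Named genes were, per fit, the 10 largest called changes in each direction, filled up to 5 by smallest p, plus a fixed panel. Members, gene lists and rules were chosen with earlier results of these data known. Alternatives are listed in the closing section. The tests were tried on simulated counts.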

Additional observations from a re-analysis of the deposited data

Results flagged for a closer look

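In 9 comparisons between cell classes, levels over the library total lay in both wells on opposite sides of the RT pool in the 2 classes, and for Klf2 this did not hold on TMM-normalised levels. These differences between classes were not tested. Ccl3 had log2 fold changes of 2.57 in CD8-like and -5.00 in Treg-like cells, a difference of 7.57, and Ccl4 had 2.16 and -4.76, a difference of 6.92. In Treg-like cells Ccl3 stood at 249 and 121 CPM over the library total under RT and at 0 and 11.1 under RT+FTY720. Ccl4 stood at 1536 and 415 there against 52.0 and 22.2. These pools held 12 and 21 such cells under RT and 10 and 13 under RT+FTY720. FTY720 D3 varied widely, at 82.6 and 347 for Ccl3 and at 82.6 and 1216 for Ccl4. The part of single cells in these Treg-like levels was not tested. Ccr8 stood at 0.66 in CD8-like and -0.89 in Treg-like cells, a difference of 1.55. Ctla4, an inhibitory receptor, stood at 0.61 in CD8-like, -0.31 in Treg-like and -0.88 in CD4 conventional-like cells, differences of 0.92 and 1.49. Klf2 stood at -1.55 in CD8-like and 0.47 in CD4 conventional-like cells, a difference of -2.01, and in the latter its levels over the library total were 321 and 355 CPM under RT and 693 and 358 under RT+FTY720. TMM-normalised, r2 was at 380.8 and 365.1, so that only r1 was higher. Between the same classes Tox differed by 2.47 (0.37 and -2.11), Gm48099 by 1.38 (0.84 and -0.54) and Rgs1 by 0.90 (0.18 and -0.72).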

How the results depend on the processing

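Of 315 recomputed values of the genes that passed, 314 kept their direction and 191 stayed past the threshold. Leaving out a pool gave 0 to 19 calls in all T cells, 0 to 14 in CD8-like, 0 to 46 in Treg-like, 0 to 2 in CD4 conventional-like, and 0 to 1 in green cells, in red cells and for the difference between colours. DESeq2 called 66, 34, 10, 23, 4, 36 and 3 genes in that order, and edgeR without a filter on low counts called 388, 166, 58, 97, 150, 292 and 92. With sums per tag sequence 0 were called in all T and CD8-like cells. Without the replicate block there were 6 calls in all T, 9 in CD8-like and 1 in red cells. With only the 6 pools of these wells there were 10, 8 and 3. Without naive-like and unnamed clusters 0 were called in all T cells. With the RT+FTY720 r1 red cells left out there were 3 in all T, 1 in Treg-like and 1 in red cells, with the label colours 3 in red cells, and with lineage-gene classes 1 in Treg-like cells.

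The CD8-like difference was 10.1 points and the Treg-like -6.37 with lineage-gene classes, and the Treg-like -6.71 without the r1 red cells. The naive CD8-like difference was -6.84 at resolution 0.6. The red share differed by 1.93 points with the label colours, and leaving out a pool gave -9.66 to 5.44. Without the r1 red cells the clone share differed by 19.7 points and the share of cell pairs by 0.948.

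Signs turned for Gm48099 in CD8-like cells (-0.39, lineage-gene classes). Among genes that had not passed in all T cells, leaving out a pool gave log2 ranges across 0 for Ccr4 (-0.92 to 0.26), Ctla4 (-0.47 to 0.30), Cxcr3 (-0.045 to 0.15), Il2ra (-0.73 to 0.18), Il7r (-0.38 to 0.15), Isg15 (-0.43 to 0.16), Mki67 (-1.05 to 0.33), Prf1 (-1.22 to 0.42), Rgs1 (-0.20 to 0.34), S1pr4 (-0.61 to 0.24) and Tox (-0.10 to 0.60). Without the r1 red cells signs also turned for Ccr4 (0.075), Cxcr3 (-0.062) and Rgs1 (-0.077), and without the naive-like clusters for Mki67 (0.65) and Rgs1 (-0.18). With the label colours they turned for Gphn in green cells (0.077) and, between colours, Chd1l (0.021), Rps19 (0.031), Rps20 (0.056), Smad3 (-0.50) and Trbv31 (-1.35). The cause was not tested. The gene test in naive CD8-like cells was not run, with 0 to 4 cells a pool. The Treg-like and CD4 conventional-like tests rested on 10 to 23 cells a pool.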
